A study of Homo sapiens with 4 samples.

Results

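The nuclear-encoded genes of the respiratory chain and ATP synthase were followed through a miR-28-5p pull out in DU-145 cells. They were chosen by symbol alone, as coding (NM_) RefSeq transcripts of genes that begin with NDUFA, NDUFB, NDUFC, NDUFS or NDUFV and a number, with UQCR, with COX and a number or with ATP5, together with SDHA, SDHB, SDHC, SDHD and CYC1. The rule gave 97 of 19491 genes with a coding transcript. They were carried by 173 transcripts in 186 annotated places, alternate contigs included, of 53209 places in each library. The rule also takes in the COX10 to COX20 genes, which assemble complex IV and are not subunits of it, and it does not take in the gene once called NDUFA4, which the RefSeq table now lists as COXFA4, or NDUFAB1, the acyl carrier subunit of complex I.

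The respiratory chain sits in the inner mitochondrial membrane. Complex I takes electrons from NADH and complex II takes them from succinate, and complex III passes them through cytochrome c to complex IV, which reduces oxygen. The proton gradient built on the way drives complex V, the ATP synthase. Most subunits are encoded in the nucleus, translated in the cytosol and imported, and many of their mRNAs are short and abundant. All subunits of complex II are nuclear, while complexes I, III, IV and V also need subunits made from mitochondrial DNA, which are not part of this set.

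DU-145 is an established line grown from a brain metastasis of prostate cancer. In both arms the cells were transfected for 24 h with 60 nM of a miR-28-5p duplex, so both carried added miR-28-5p, and no arm without it was compared here. The control arm, miR-28CT, received the untagged duplex (ds-miR-28CT). The other arm, miR-28BIO, received a mix of duplexes tagged with biotin at the 3′ end that carried a thiouridine at nucleotide 8 (8tU) or 18 (18tU) (ds-miR-28BIO). All cells were irradiated at 365 nm with 2 J/cm2, the extracted RNA was incubated with streptavidin beads, and the recovered RNA was sequenced with 50-base reads in 2 libraries per arm. The control libraries therefore hold the RNA that stays on the beads without a biotin tag. No library of the RNA before the beads was compared here, so recovery on the beads and the level in the cells cannot be told apart.

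The deposited values are FPKM, fragment numbers that Cufflinks estimated and divided by transcript length and library size. They were divided by a factor for each library (1.06 and 0.850 for the miR-28CT pair, 1.06 and 1.09 for the miR-28BIO pair, replicate 1 first here and throughout) and are called scaled FPKM below. From the deposited coverage, the libraries held about 13.0 to 17.9 M assigned reads, and the tested respiratory chain genes a median of about 544 and 550.5 reads in miR-28CT and 247 and 432.5 reads in miR-28BIO. The epithelial genes KRT8, KRT18, EPCAM and CDH1 and VIM, which mark DU-145, were above 0 in all 4 libraries, and KLK3, a luminal prostate gene, was listed at 0 in all. Of 6 markers of other cell types, PTPRC, CD3E, HBB and HBA1 were listed at 0 in all libraries, and ALB and COL1A1 stayed at or below 0.209.

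A miRNA pairs with its targets mainly through its seed, nucleotides 2 to 8 from its 5′ end, and the matching letters in a transcript are AGCTCCT for miR-28-5p. This motif was searched on the sense strand of the canonical GENCODE 44 transcript (hg38) of each gene, and it was held by 14 of the 86 respiratory chain genes that could be tested, 16.3%, against 33.2% of 10295 tested genes with such a transcript. In the 3′UTR the count was 8 of 86, 9.30%, against 15.6%. The shorter motif GCTCCT, which lies within it and matches nucleotides 2 to 7, was held by 34.9% of the respiratory chain genes and 66.3% of all. The genes with AGCTCCT had a median canonical transcript of 2369.5 nt and those without 716.5 nt, so the counts move with length. The windows below are the 3′UTR matches that lie inside the span of the deposited transcripts. They are shown because one of them is in UQCR11, which was higher in miR-28BIO, while the others are in genes that were lower or nearly level, and the capitals mark the motif.
UQCR11, exon 3 of 3, chr19:1598194-1598200, minus strand: cctggtggtgctAGCTCCTcccacctcagc
ATP5F1D, exon 4 of 4, chr19:1244504-1244510, plus strand: gtgggcccagccAGCTCCTggggtcccggc
ATP5F1D, exon 4 of 4, chr19:1244630-1244636, plus strand: ctgggccagggaAGCTCCTcctcagctttg
COX19, exon 3 of 3, chr7:967345-967351, minus strand: ccaggtgtattgAGCTCCTgcttttctaac
NDUFA10, exon 10 of 10, chr2:239960094-239960100, minus strand: gtccaatatggtAGCTCCTagccacatgtg

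The first question was whether RNA of the respiratory chain was recovered more or less with the tagged duplex. Most of these genes were lower in miR-28BIO. Of the 97 genes, 86 had a mean of at least 0.5 scaled FPKM and were tested, and the median log2 fold change of miR-28BIO over miR-28CT, on log2(scaled FPKM + 0.1), was -0.97 over the 86 and -0.09 over all 10503 genes tested. The value was below 0 for 76 genes and above 0 for 10. As in any bulk sample, fewer cells that carry an RNA and less of it per cell cannot be told apart either. Scaling moved the median of all genes, to 0.08 without scaling and -0.01 with upper-quartile factors, and the respiratory chain median stayed 0.88 to 0.89 below it in each case. NDUFA10, an accessory subunit of complex I, was the single gene whose sign turned with the scaling.

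The direction was the same in both same-numbered pairs of libraries. The median difference was -0.89 in the replicate 1 pair and -0.89 in the replicate 2 pair. In both pairs, 73 of the 86 genes were lower in miR-28BIO, 84.9%, against 40.1% of all genes tested, and 23 were at least 2-fold lower in both, 26.7% against 3.6%. Higher in both pairs were 7 genes, 8.14%, against 30.6% of all genes. They were ATP5F1A, COX10, COX15, NDUFC2, NDUFS6, SDHC and UQCR11.

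The replicates of an arm differed about as much as the arms did. Both miR-28BIO values lay below both miR-28CT values for 34 of the 86 genes, 39.5%, against 12.8% of all genes tested, and above them for 3 genes, NDUFC2, NDUFS6 and COX10, 3.49% against 12.4%. With limma fitted over all genes without a replicate term, 0 of the 86 genes and 0 of 10503 genes passed an adjusted p of 0.05 (0% called), and the respiratory chain genes had an adjusted p of 1.00. At an unadjusted p under 0.05, 2 of them were lower, NDUFB1 and NDUFB9, and 0 were higher, against 78 lower and 240 higher among all genes. The p-values measure only the spread between these libraries. The median over the 86 genes was -1.45 without miR-28CT replicate 1, -0.32 without miR-28CT replicate 2, -0.36 without miR-28BIO replicate 1 and -1.47 without miR-28BIO replicate 2, so its size rested on which library of a pair was kept.

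**Figure D1:**
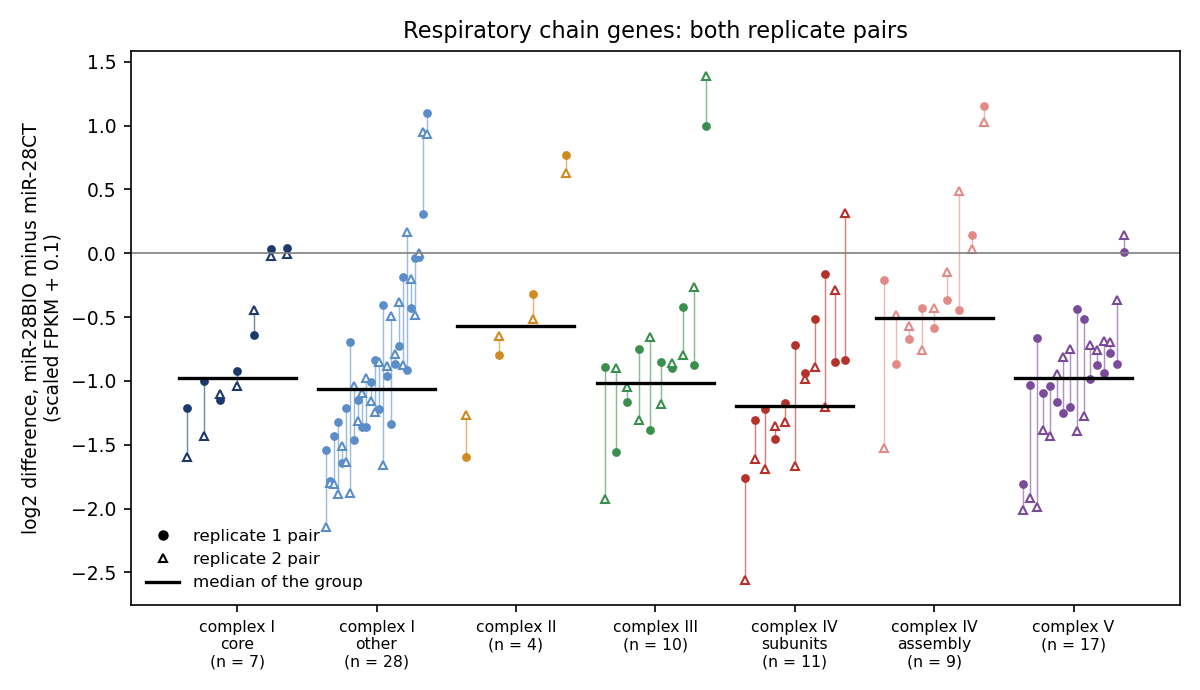
Log2 difference between miR-28BIO and miR-28CT (vertical axis, on scaled FPKM + 0.1) for the tested respiratory chain genes by complex, with the replicate 1 pair as filled circles, the replicate 2 pair as open triangles and a line joining both for each gene. ATP5MG, NDUFA5 and NDUFC2-KCTD14, listed at 0 in miR-28BIO replicate 1, are counted in n and in the black median line but not drawn. In each complex most genes lie below 0 in both pairs, and 7 genes in all lie above 0 in both.

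With the replicate number as a block, 19 respiratory chain genes were called lower in miR-28BIO and 0 higher, with limma's adjusted p between 0.0358 and 0.0494. They were 22.1% of the 86, against 1.97% of all genes called lower and 2.5% called higher. Their fold within a pair ran from 2.06 to 5.90. The called genes were NDUFV1 and NDUFS7 of the complex I core, NDUFA2, NDUFA8, NDUFA11, NDUFA13, NDUFB1, NDUFB2, NDUFB9 and NDUFB11 of its accessory subunits, SDHB, UQCRQ, the complex IV subunits COX6C, COX7A2, COX7B, COX7C and COX8A, and ATP5MK and ATP5PO of complex V. All of these calls lay just under the threshold, and other choices of processing ended some or all of them. With the block, the count lower was 0 without a trend in limma, against 0% of all genes. It was 0 with noncoding (NR_) transcripts added to the test, against 0.19%, and 1 without a filter on low values, against 0.294%. It was 3 with a pseudocount of 0.01, against 0.457%, and 15 with a pseudocount of 1, against 1.71%. With a mean of at least 1 scaled FPKM it was 24, against 3.49%. Without scaling it was 23, against 3.10%, and 16 of these were among the 19. Called higher with the block were 3 genes without scaling, 3 with upper-quartile factors and 2 with a mean of at least 1, where 4.70%, 2.86% and 3.48% of all genes were called higher.

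The 7 core subunits of complex I in this set carry its flavin and its iron-sulfur clusters. Their median log2 fold change was -0.98, with 5 of 7 lower in both pairs. NDUFS8, an iron-sulfur subunit and the highest of them, was 62.2 and 150.02 scaled FPKM in miR-28CT and 32.8 and 72.9 in miR-28BIO. Each miR-28BIO library was below its partner, by 1.89-fold and 2.06-fold, but the arms overlapped (log2 fold change -0.98 ± 0.76 SE). NDUFV1, the flavin-binding subunit that receives electrons from NADH, was 23.3 and 62.6 in miR-28CT and 9.96 and 20.6 in miR-28BIO. It had the lowest fold change of the group, -1.41 ± 0.74 SE, its arms did not overlap, and its adjusted p was 0.0479 with the block.

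NDUFS1, by contrast, was level. This largest iron-sulfur subunit was 12.2 and 10.6 in miR-28CT and 12.5 and 10.5 in miR-28BIO. Its log2 fold change was 0.00, and within a pair the libraries differed by less than the replicates of either arm did.

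Outside the core, the set holds 30 complex I genes, among them the read-through gene NDUFC2-KCTD14, and 28 were tested. Their median log2 fold change was -1.06, and 24 were lower in both pairs. NDUFB1 (hg38, chr14:92116124-92121809), a small membrane-arm subunit and the most abundant gene of the group, was 176.7 and 265.9 scaled FPKM in miR-28CT and 51.4 and 76.1 in miR-28BIO. Its higher miR-28BIO value was over 2-fold below its lower miR-28CT value, its log2 fold change was -1.79 ± 0.60 SE, and its adjusted p with the block was 0.0358, the same as that of ATP5MK. NDUFB9, also in the membrane arm, was 43.1 and 66.7 in miR-28CT and 18.5 and 21.4 in miR-28BIO, which again left the arms 2-fold apart (-1.42 ± 0.50 SE, adjusted p of 0.0479 with the block). Of the respiratory chain genes, 2 were that far apart with miR-28BIO lower, 2.33% against 1.19% of all genes tested, and 0 with miR-28BIO higher, against 2.37%.

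Among the complex I genes outside the core, 2 were higher in both pairs, NDUFS6 and NDUFC2. NDUFS6 (chr5:1801382-1816051), a zinc-binding subunit needed late in the assembly of complex I, was 60.8 and 95.1 scaled FPKM in miR-28CT and 130.3 and 181.3 in miR-28BIO. Its arms did not overlap and its log2 fold change was 1.01 ± 0.59 SE, with an adjusted p of 1.00 without and 0.0605 with the block. It was the one gene with a main transcript under 700 nt that was higher in miR-28BIO, and its canonical transcript held no AGCTCCT.

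NDUFC2, a membrane-arm subunit, was 15.7 and 9.61 scaled FPKM in miR-28CT and 19.4 and 18.6 in miR-28BIO. Its read-through transcript NDUFC2-KCTD14 shares its exons, and the split between them is uncertain. NDUFC2-KCTD14 was 3.30 and 6.19 in miR-28CT, listed at 0 in miR-28BIO replicate 1 and 6.25 in miR-28BIO replicate 2. Its replicate 2 pair was level, so its low fold change rested on that listed 0. NDUFA5 was likewise listed at 0 in miR-28BIO replicate 1, with 1.83 and 1.37 in miR-28CT and 0.811 in miR-28BIO replicate 2.

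Complex II, succinate dehydrogenase, has 4 subunits, and all were tested. SDHA, the flavoprotein that oxidises succinate, was 15.5 and 19.5 scaled FPKM in miR-28CT and 12.4 and 13.6 in miR-28BIO. SDHB, the iron-sulfur subunit, was 25.8 and 46.7 in miR-28CT and 8.47 and 19.4 in miR-28BIO. Both were lower in every miR-28BIO library than in either miR-28CT library, SDHA slightly (-0.42 ± 0.43 SE) and SDHB by more (-1.43 ± 0.66 SE), and SDHB was called with the block, at an adjusted p of 0.0473.

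The membrane anchors of complex II went in opposite directions. SDHD was 28.5 and 24.9 in miR-28CT and 16.4 and 15.8 in miR-28BIO, close between replicates and lower in both (-0.72 ± 0.43 SE). SDHC was 6.63 and 2.40 in miR-28CT and 11.4 and 3.76 in miR-28BIO. It was 1.71-fold and 1.54-fold higher in the pairs, but the arms overlapped since replicate 1 was well above replicate 2 in both (0.70 ± 0.82 SE). The adjusted p of the anchors with the block was 0.0860 and 0.0971.

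In complex III, which carries electrons from ubiquinol to cytochrome c, 9 of 10 genes were lower in both pairs and the median log2 fold change was -1.02. CYC1, cytochrome c1, was the highest of them and the lowest in fold change. It was 34.1 and 142.1 scaled FPKM in miR-28CT and 18.3 and 37.3 in miR-28BIO. The pairs differed by 1.86-fold and 3.81-fold, the arms overlapped, and the adjusted p was 0.0801 with the block (-1.41 ± 0.91 SE).

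UQCR11 (chr19:1597155-1605484), a small subunit of complex III, was the remaining gene. It was 7.30 and 26.9 in miR-28CT and 14.6 and 70.5 in miR-28BIO, 1.99-fold and 2.62-fold higher within the pairs, while the arms overlapped. Its log2 fold change of 1.19 ± 1.08 SE was the highest of the 86 genes, with an adjusted p of 1.00 without and 0.0543 with the block. It was 0.29 without miR-28CT replicate 1, 2.15 without miR-28CT replicate 2, 2.33 without miR-28BIO replicate 1 and 0.068 without miR-28BIO replicate 2. It is on the list of pull out targets that the study drew from these same libraries, so its direction here is not independent evidence. Its 3′UTR holds the AGCTCCT match printed above. ATP5F1D, with a pair of such matches in its 3′UTR, was 18.4 and 106.2 in miR-28CT and 8.87 and 39.3 in miR-28BIO, lower in both pairs.

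UQCRH, the hinge subunit, and UQCRHL, its intronless near-copy, share reads and their split is uncertain. UQCRHL was 41.97 and 2.46 scaled FPKM in miR-28CT and 16.0 and 1.53 in miR-28BIO. UQCRH was 44.4 and 19.1 in miR-28CT and 24.6 and 8.39 in miR-28BIO. Both were lower in miR-28BIO within each pair and higher in replicate 1 than in replicate 2 in each arm.

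Of 17 complex IV subunit genes, 11 were tested, and their median log2 fold change of -1.19 was the lowest of the groups. COX8A (chr11:63974607-63976543) was the most abundant gene of the whole set. It was 172.3 and 1502 scaled FPKM in miR-28CT and 69.4 and 491.6 in miR-28BIO. The pairs differed by 2.48-fold and 3.05-fold, but replicate 2 was 8.72-fold above replicate 1 in miR-28CT and 7.08-fold in miR-28BIO, so miR-28BIO replicate 2 was above miR-28CT replicate 1 (-1.46 ± 1.56 SE, adjusted p of 0.0482 with the block).

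COX7A2, the widely expressed form of subunit 7A, had the lowest fold change of the group. It was 38.7 and 172.9 in miR-28CT and 11.4 and 29.2 in miR-28BIO, so its arms did not overlap (-2.16 ± 0.98 SE, adjusted p of 0.0462 with the block). COX7A2L, a related protein that joins complexes III and IV in supercomplexes, was 30.4 and 14.0 in miR-28CT and 16.9 and 17.4 in miR-28BIO. It was lower in the first pair and higher in the second, the only complex IV subunit gene in which the pairs disagreed.

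The 9 COX10 to COX20 genes, which make haem a, deliver copper or help build complex IV, were low in level and had the smallest shift of the groups, with a median of -0.51 and 6 of 9 lower in both pairs. None of the 9 was called with the block. COX14, the highest of them and the lowest in fold change, was 6.96 and 40.1 scaled FPKM in miR-28CT and 6.02 and 13.9 in miR-28BIO, with overlapping arms (-0.86 ± 1.03 SE). COX10 (chr17:14069402-14208679), which makes haem o on the way to haem a, was 3.001 and 2.81 in miR-28CT and 6.78 and 5.82 in miR-28BIO. Its replicates were close, its arms did not overlap, and it was 2.22-fold and 2.03-fold higher in the pairs (1.09 ± 0.41 SE, adjusted p of 0.0572 with the block). No AGCTCCT was found in its canonical transcript.

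In complex V, 17 of 20 genes were tested, 16 were lower in both pairs, and the median log2 fold change was -0.98. ATP5MF, a small membrane subunit, was 351.4 and 323.6 scaled FPKM in miR-28CT and 172.2 and 85.6 in miR-28BIO. Its replicates lay close in miR-28CT and its arms did not overlap (-1.47 ± 0.68 SE, adjusted p of 0.0683 with the block). ATP5F1A, the alpha subunit of the catalytic head, was the 1 gene not lower, with 56.3 and 94.2 in miR-28CT and 56.7 and 104.0 in miR-28BIO (0.08 ± 0.63 SE). Its partner in the head, ATP5F1B, was 175.8 and 412.0 in miR-28CT and 122.8 and 170.4 in miR-28BIO. ATP5MG, another small membrane subunit, was 46.0 and 44.5 in miR-28CT, listed at 0 in miR-28BIO replicate 1 and 23.9 in miR-28BIO replicate 2. No fold is given for its coding transcript, since it would rest on a listed 0. With the gene's noncoding (NR_) transcripts added, the log2 fold change was -0.89 ± 0.45 SE. Why the coding transcript was listed at 0 was not tested.

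**Figure D2:**
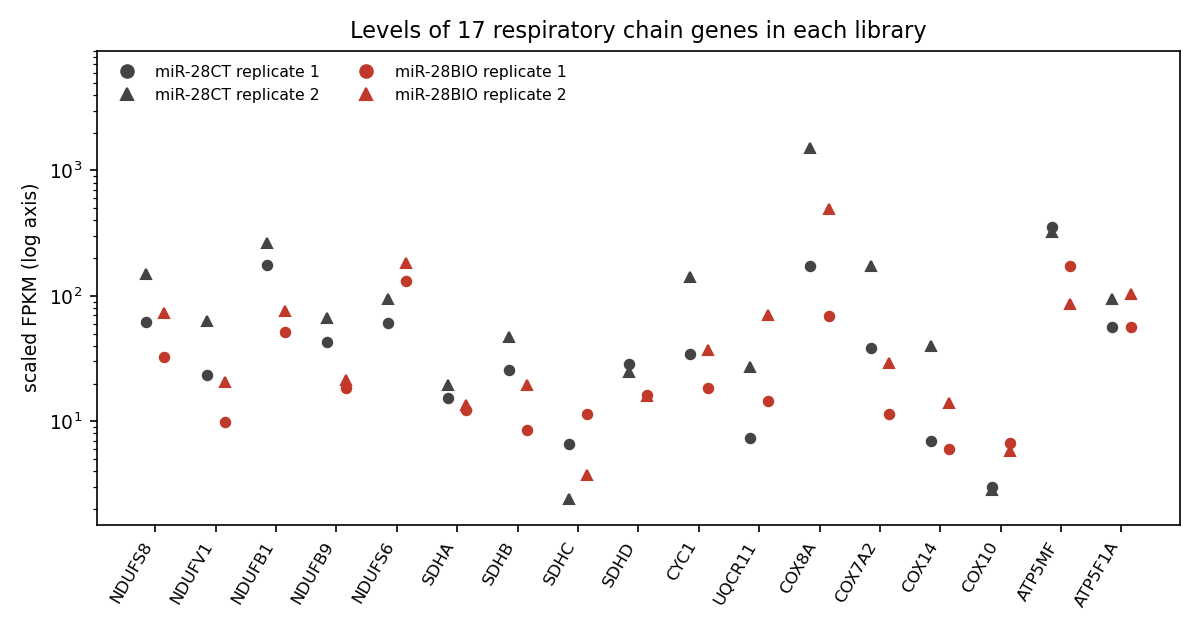
Scaled FPKM (log axis) of 17 respiratory chain genes in each library, with miR-28CT in grey, miR-28BIO in red, replicate 1 as circles and replicate 2 as triangles. NDUFS6, SDHC, UQCR11 and COX10 were above their same-numbered control in both pairs, ATP5F1A was nearly level, and the other genes drawn were below it in both pairs.

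Summed over the tested genes, the respiratory chain came to 3591 scaled FPKM in miR-28CT replicate 1, 10178 in miR-28CT replicate 2, 1913 in miR-28BIO replicate 1 and 4209 in miR-28BIO replicate 2. The sum was thus 1.88-fold and 2.42-fold lower in miR-28BIO within the pairs. Every one of the 7 groups was lower in sum in both pairs, from 1.23-fold and 1.69-fold for the complex IV assembly genes to 2.1-fold and 2.8-fold for the complex IV subunits. Of all FPKM of coding transcripts before scaling, these genes took 3.36% and 5.17% in miR-28CT and 2.09% and 3.25% in miR-28BIO.

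Replicate 2 stood above replicate 1 for most of these genes, in both arms. This held for 60 of the 86 genes, 69.8%, against 42.9% of all genes tested, and the median difference was 0.80 in miR-28CT and 0.88 in miR-28BIO on the log2 scale. As the coefficient of the replicate number in limma's blocked fit, 48 genes, 55.8% against 25.2% of all genes, passed as higher in replicate 2 and 8, 9.30% against 21.9%, as higher in replicate 1, and over the alternatives to that fit the first count lay between 40 and 48. Among genes above 0 in all libraries, the widest gap in miR-28CT was that of UQCRHL, 17.04-fold higher in replicate 1, followed by that of NDUFB2, an accessory subunit of complex I, with 24.1 and 288.2 scaled FPKM. In miR-28BIO it was that of the core subunit NDUFS7, with 6.12 and 70.8. Replicates differed by more than 4-fold for 22 of the 86 genes in miR-28CT and for 14 of the 83 that were above 0 in both libraries of miR-28BIO. The complex IV subunits were the group with the widest gap, with a sum 5.03-fold higher in replicate 2 of miR-28CT and 3.77-fold in miR-28BIO, while complex II was nearly level at 1.23-fold and 1.08-fold. In both arms, 17 genes were higher in replicate 1, and those that passed were ATP5PD, NDUFA10, NDUFA12, NDUFB3, SDHC, UQCRB, UQCRH and UQCRHL.

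**Figure D3:**
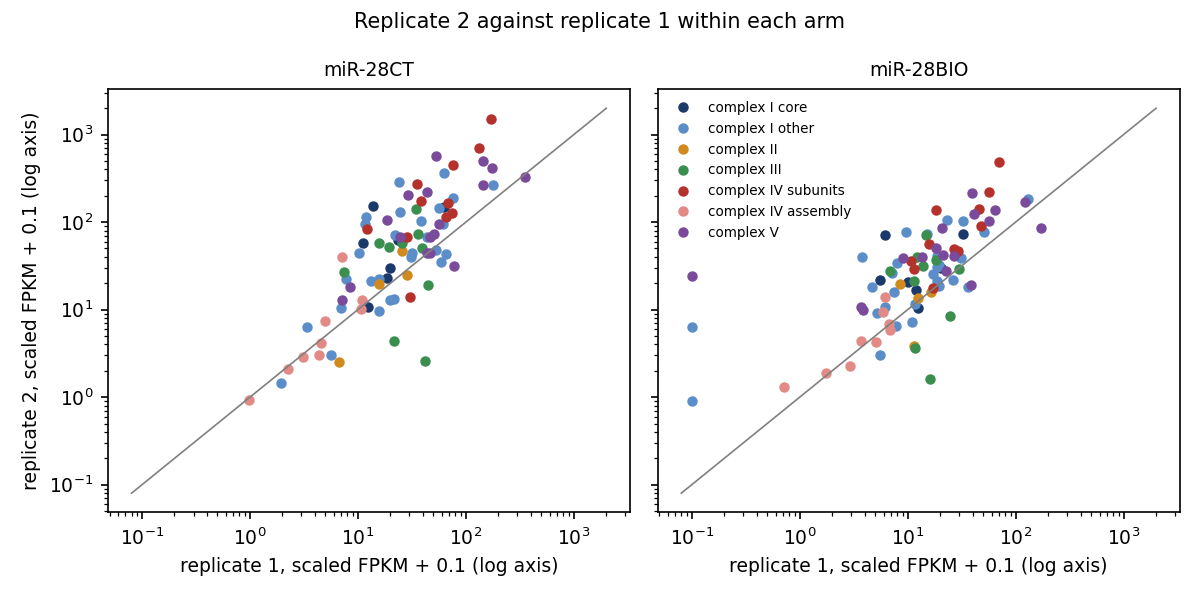
Scaled FPKM + 0.1 of the 86 tested respiratory chain genes in replicate 2 (vertical) against replicate 1 (horizontal) of miR-28CT (left) and miR-28BIO (right), on log axes, coloured by complex, with the line of equal values. Most genes lie above the line in both arms, 60 of 86 in both at once, and the 3 points at the left edge on the right were listed at 0 in miR-28BIO replicate 1.

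Transcript length moved with the difference between the arms. The main transcript of the respiratory chain genes had a median length of 852 nt, against 2985 nt for all other genes tested, and 58.1% of them were under 1000 nt, against 6.53%. Below 700 nt, 31 respiratory chain genes had a median log2 fold change of -1.04 and 234 other genes -1.15. From 700 to 1500 nt the medians were -1.13 for 29 respiratory chain genes and -0.58 for 1415 others, and from 1500 nt -0.52 for 26 and -0.01 for 8768. Called lower with the block were 25.8% of the respiratory chain genes and 24.4% of the others below 700 nt, 31.0% and 6.64% from 700 to 1500 nt, and 7.69% and 0.422% from 1500 nt. Lower in both pairs were 96.8% and 73.9% below 700 nt, 89.7% and 63.3% from 700 to 1500 nt, and 65.4% and 35.0% from 1500 nt. Across genes, Spearman's rho of length with log2 fold change was 0.47 for the 86 genes and 0.43 for the 10417 others, as a description, since genes in the same libraries are not independent. The part of length in the difference between the arms was not tested.

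Length differed within the set as well. The complex IV subunits had the shortest median, 590 nt, and the lowest median fold change, while the complex IV assembly genes had the longest, 2617 nt, and the smallest shift. Of the 10 genes above 0, 8 had a main transcript of 1500 nt or more, and the others were NDUFS6 with 546 nt and UQCR11 with 1335 nt. NDUFV1 with 1604 nt and UQCRC1, a core subunit of complex III, with 1595 nt in its canonical transcript were among the longer genes that were lower, with log2 fold changes of -1.41 and -1.03.

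**Figure D4:**
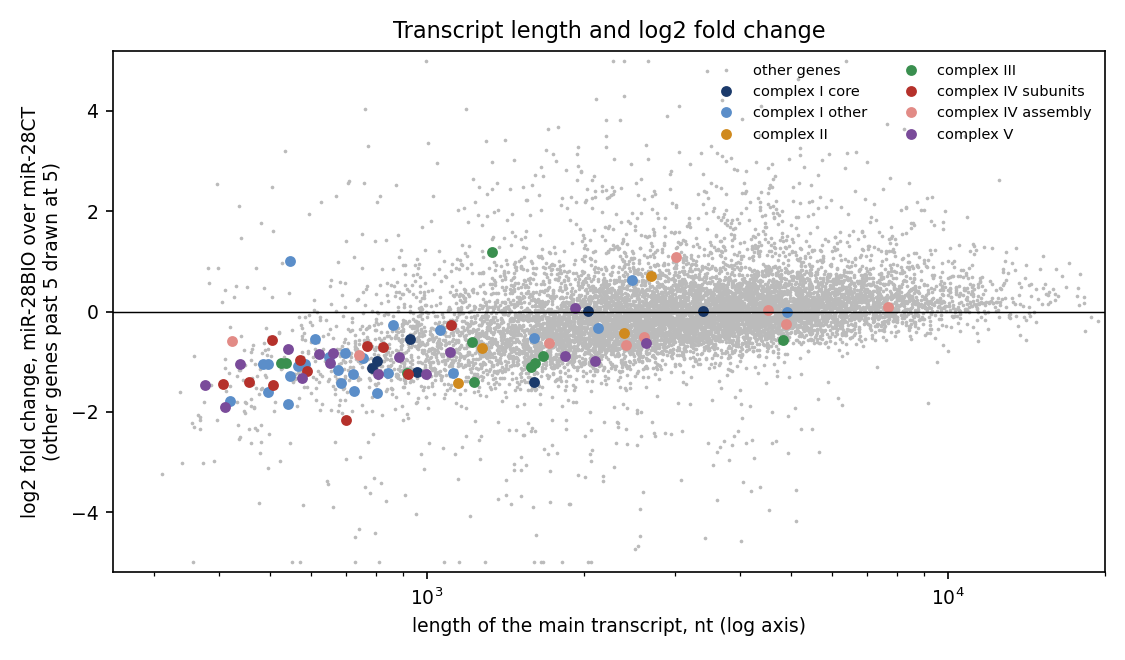
Log2 fold change of miR-28BIO over miR-28CT (vertical axis) against the length of the main transcript in nt (horizontal, log axis) for the respiratory chain genes, coloured by complex, and the 10417 other genes in grey. The 3 genes listed at 0 in miR-28BIO replicate 1 are not drawn, and other genes past 5 are drawn at 5. The short respiratory chain genes lie among other short genes below 0, and NDUFS6 is the one respiratory chain gene above 0 under 700 nt.

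Single transcripts gave the same direction without a call. Of 109 respiratory chain transcripts tested one by one, 88 were lower, with a median of -0.89 against -0.08 over all 15587. With limma, 0 of them and 0 of all transcripts passed (0% called), without or with the block, and at an unadjusted p under 0.05 without it 5 were lower and 1 higher, against 557 of all in either direction. The split between isoforms was unstable. In 21 genes with several tested transcripts, 25 of their 44 transcripts were listed at 0 in at least 1 library, and in 10 genes the isoforms had opposite signs. Of the 19 transcripts above 0 in all libraries, 18 were lower. NDUFV1 shows this. Its 1604-nt transcript was 23.3 and 53.7 scaled FPKM in miR-28CT and 5.15 and 7.33 in miR-28BIO, and its 1631-nt transcript was 0 and 8.90 in miR-28CT and 4.81 and 13.3 in miR-28BIO. The first was lower and the second higher in both pairs, while their sum was lower.

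Assembly factors of the chain, cytochrome c and the complex I subunit NDUFAB1, a list of 47 other genes, were also mostly lower in miR-28BIO. Of these, 46 were tested, the median log2 fold change was -0.53, and 27 were lower and 4 higher in both pairs, 58.7% and 8.70%, against 40.1% and 30.6% of all genes tested. The difference from the respiratory chain genes was not tested. With the block, 5 were called lower, 10.9% against 1.97% of all genes, and 0 higher, against 2.5%. The 5 were UQCC5, UQCC2, COA4, TMEM126B and SCO2. UQCC2, which helps make cytochrome b of complex III, was 21.7 and 39.4 scaled FPKM in miR-28CT and 9.98 and 13.0 in miR-28BIO. COA4, a complex IV assembly factor, was 34.0 and 40.6 in miR-28CT and 14.9 and 16.7 in miR-28BIO. CYCS, cytochrome c itself, was 11.5 and 11.5 in miR-28CT and 6.87 and 7.89 in miR-28BIO, lower in both pairs and not called (-0.63 ± 0.41 SE, adjusted p of 0.111 with the block). The median main transcript of this list was 1473 nt.

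The remaining 11 respiratory chain genes were too low to be tested. ATP5ME, ATP5MF-PTCD1, COX6A2, COX7A1, COX7B2, COX8C, NDUFA3 and NDUFA6 were listed at 0 in all libraries, and ATP5MGL, COX4I2 and COX6B2 stayed below 1 scaled FPKM in each. COX6A2 and COX7A1 are the muscle forms of their subunits and COX7B2 and COX8C are testis forms. ATP5ME, NDUFA3 and NDUFA6 are subunits that most cells make, so their listed 0 is not read as absence, and NDUFA3 and NDUFA6 were also annotated on alternate contigs.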

How the data were processed

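RNA from the pull out was measured in 4 libraries, 2 of miR-28CT and 2 of miR-28BIO, grouped and numbered by the sample labels. According to the submitters' processing notes and the study's methods, the authors checked reads with FastQC 0.10.1, trimmed them with cutadapt, aligned them to hg38 with TopHat2 2.0.9 and estimated transcripts with Cufflinks 2.1.1. The authors deposited for each library the FPKM of every RefSeq transcript, and the deposited coverage, a signal, was used here only to estimate reads. FPKM carry no counts, so tests for counts were not used, and no counting interval is given. The authors' own comparison was made with Cuffdiff on reads, and no pairing term is described.

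FPKM of coding transcripts that Cufflinks gave the status OK throughout were divided by median-of-ratios factors from 11650 transcripts above 0 in all and summed by gene symbol from the RefSeq table, which named 97.9% of the coding rows. The 10503 genes that averaged 0.5 scaled FPKM or more went into limma 3.58.1 as log2(scaled FPKM + 0.1) (lmFit and eBayes with a trend), with p-values adjusted over all genes by the Benjamini-Hochberg method at 0.05. This pseudocount understates the change of low genes. The study describes 2 biological replicates that gave 2 libraries of each arm. This was read here as a replicate giving both arms, which neither the study nor the labels state outright. Same-numbered libraries deviated together from their arm means (r = 0.73 over all genes, 0.65 over the respiratory chain genes), so the fit with the replicate block is given beside the results it changes. The series' design text counts 1 more miR-28CT sample than analysed here.

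The genes and lists were chosen with earlier results of these data known. The genes named with full values are, in each group, the highest in level and the highest and lowest in fold change, all of complex II, CYC1, UQCR11 and any with arms 2-fold apart. Others were named after their values were seen. A gene picked by this rule and some marker genes are not reported here, although counts over all genes include them. The fits were first run on simulated data with 200 genes changed. At the spread of these libraries, 0 of the 200 were called, without or with the block. With the spread reduced, 200 were called without the block and 199 with it, along with 9 and 2 unchanged genes. The simulated libraries shared no replicate effect, so the blocked fit was not tested on paired data. Other pseudocounts, filters, scalings, limma without a trend, noncoding transcripts, every Cufflinks status, a 2-fold margin between the arms and leaving out each library were tried, and the blocked fit was combined with these settings after seeing the data. Tables were handled in Python 3.11.15 (pandas 2.3.3, numpy 2.4.6, scipy 1.17.1), the fits ran in R 4.3.3 and the plots were drawn with matplotlib 3.10.9.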

Additional observations from a re-analysis of the deposited data

How the results depend on the processing

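The respiratory chain median stayed below 0 in every alternative run, between -0.80 without scaling and -0.98 with a mean of at least 1 scaled FPKM, and between -1.47 and -0.32 when a library was left out. Without the replicate block, the count of called respiratory chain genes stayed at 0 in all alternatives, and that of all genes at 0 except for 3 with noncoding transcripts added. With so wide a spread between replicates, these counts of 0 say nothing about stability. With the block, 470 genes and 19 respiratory chain genes were called. Combined with the block after seeing the data, the counts of all genes and of respiratory chain genes were 180 and 3 with a pseudocount of 0.01, 432 and 15 with a pseudocount of 1, 155 and 1 without a filter, 651 and 26 with a mean of at least 1, 820 and 26 without scaling, 505 and 22 with upper-quartile factors, 61 and 0 with noncoding transcripts, 471 and 19 with every Cufflinks status and 0 and 0 without a trend. The cause was not tested.

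Arms at least 2-fold apart were found for 2 genes lower and 0 higher, against 1.19% and 2.37% of all genes, and arms that did not overlap, with a library left out, for 38 to 71 lower and 6 to 8 higher. With 3 libraries fewer values have to be in order, for any gene. The share of all genes with arms that did not overlap was not counted with a library left out. Whether these counts exceed that share was therefore not tested, and nothing is concluded from them. Of 20 named genes, 14 kept their sign in every alternative. Signs turned only when a library was left out, in ATP5F1A (-0.35 to 0.52), COX14 (-2.09 to 0.41), COX7A2L (-0.80 to 0.32), COX8A (-2.99 to 0.12), NDUFC2-KCTD14 (-5.51 to 0.47) and SDHC (-0.080 to 1.49). The size for NDUFC2-KCTD14 rests on a listed 0 and was set by the pseudocount, with -2.54 at 0.1, -4.18 at 0.01 and -1.05 at 1. Of the genes that kept their sign, some moved in fold change by more than 1.5 times with a library left out. These were CYC1 (-2.41 to -0.36), NDUFS8 (-1.59 to -0.32), NDUFV1 (-2.09 to -0.67), COX7A2 (-3.21 to -1.06) and SDHA (-0.55 to -0.23). The same held for SDHB (-2.01 to -0.83), ATP5MF (-1.97 to -0.96), UQCR11 (0.068 to 2.33) and ATP5MG, for which no fold of the coding transcript is given. Leaving out a library breaks a pair, so the block was not fitted there. Precision was limited by 2 libraries per arm, whose replicates differed by more than 4-fold for 22 of the 86 genes in miR-28CT and for 14 of the 83 above 0 in both libraries of miR-28BIO.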
